A study of Caenorhabditis elegans with 30 samples.

Results

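Wild-type Caenorhabditis elegans hermaphrodites of the strain N2 that never met ethanol were sequenced at 2 harvest times, and the change between these times is described here. The worms spent 18 h on plates with 0 mM ethanol, from the last larval stage into the opening day of adulthood, and were harvested at once or after 6 h more without ethanol. The 10 libraries, 5 for each harvest time, were chosen by genotype, dose and time in the labels, out of 30 libraries in the series, and no measured value entered the choice. The study collected them as the unexposed controls in a search for transcripts that respond to ethanol and to its removal. All groups compared here are N2 worms that the labels call adults in their opening day. Each library is a pool of whole worms, and replicates were collected on different days. The group harvested later had also been moved to other plates, so 6 h more of adult life, the move and the clock time of harvest cannot be told apart. Whether the 2 harvest times share collection days is not stated, so a difference of days between them cannot be told apart from these either. Wild-type worms that had spent the same 18 h on 400 mM ethanol and were harvested at the same 2 times, 5 libraries each, share no library with the unexposed worms and are set beside them. The other 10 libraries are from swsn-9 mutants. They entered only an alternative fit of all 30 libraries, run to check how far the calls depend on the choice of libraries.

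A hermaphrodite makes its sperm as a late larva, then switches its germ line to oocytes and stores the sperm for self-fertilisation, so in an adult the transcripts of sperm assembly belong to a step that is over. Oocytes load messages for the embryo and for the eggshell, and they take up yolk that the intestine makes from the vitellogenins. The cuticle is built from a large family of collagens, transcribed in waves around each moult and again in the adult.

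Libraries harvested at once held 11812827 to 16456780 reads counted on genes, and those harvested at 6 h held 13790931 to 17328021. The label of adult hermaphrodites was checked against its markers. All 6 vitellogenins, all 21 eggshell genes of the list and the adult collagen col-19 had reads in every library. Of the markers of males, lov-1 had 0 counts in the 10 libraries and pkd-2 had 2 counts summed over the 5 libraries harvested at once and 4 over the 5 harvested later. Of the other 6 male markers, no library held more than 11 counts of any. Levels are given as CPM, the counts scaled to a common library size. CPM are not corrected for gene length, so between genes they rank reads and not copies. A gene was called where the adjusted p fell below 0.05 (quasi-likelihood test of edgeR, adjusted by the method of Benjamini and Hochberg over the 16210 genes tested), with no minimum for the fold, and each adjusted p below is from this test. Where a named gene overlaps another, reads of both could be counted together, which applies to perm-2, egg-3, rnr-2, psf-1, pal-1, col-142, nas-37, fbn-1, cts-1, acdh-2, dhs-28, dgat-2, lbp-9, fln-1 and lin-26 beside those marked below. The replicates came from different days, so these p-values include the spread between days within a harvest time. They do not cover a difference of days between the 2 times. In RNA from whole worms, fewer cells of a type and less RNA per cell cannot be told apart, and this holds for each result below.

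The 2 harvest times differed in 3099 genes, 19.1% of those tested. At 6 h, 1327 genes were higher (8.19%) and 1772 were lower (10.9%), and the median log2 fold change over all genes tested was -0.03. The rises were small, and the falls are described on either side of a cut at 2-fold. The median log2 fold change of the genes that rose was 0.22, a fold of 1.17, and 52 of them rose at least 2-fold. Among the genes that fell, the median was -0.71, and 715 fell at least 2-fold, most of them from low levels, since 616 of the 715 were under 5 CPM when harvested at once (median 1.12 CPM). The 1057 genes that fell less had a median of 33.7 CPM. A gene with few counts passes the test only with a large fold, so the test itself in part sets this link of level and fold. The 5 libraries of one time did not overlap the 5 of the other in 2004 genes, 12.4% of those tested. The total is sensitive to single libraries. Without replicate 4 of the worms harvested at once 1950 genes were called, 753 of them higher, and the number higher was 872 without replicate 2 of that time and 863 without replicate 1 of the 6 h worms.

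In worms that had been exposed, 4053 genes changed between the same times, 1826 higher (11.3%) and 2227 lower (13.7%). Of the unexposed worms' rises, 639 (48.2%) were also called higher there and 18 were called lower. Of their falls, 930 (52.5%) were also called lower and 80 were called higher. The difference between the harvest-time changes was called in 856 genes (5.28%), with the change in unexposed worms the more positive in 353 (2.18%) and the more negative in 503 (3.10%). Unexposed and exposed worms were treated in parallel on the same days, and with libraries of the same number paired within each harvest time as a replicate block, a fit chosen after seeing the data, the difference was called in 1576 genes. These included 833 of the 856, with the more positive change in unexposed worms in 660 and the more negative in 916. Without replicate 5 of the unexposed worms at 6 h the paired fit called 1197. Counts of differences below are given without pairing, and with it where it moves them by more than 1.5 times. They stand beside 5.28% of all genes without pairing and beside 1576 of 16210 with it.

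Transcripts of sperm fell furthest. Of 90 sperm genes tested from a list of 101, 63 were lower at 6 h and 1 was higher, beside 10.9% and 8.19% of all genes, and the median log2 fold change of the list was -2.92. The core of the list is the family of major sperm proteins, which drive the crawling of nematode sperm and signal to oocytes. Summed over the family, replicates 1 to 5 harvested at once had 141, 248, 61.7, 336 and 177 CPM. At 6 h the same sum was 1.07, 1.00, 6.18, 2.97 and 87.0 CPM. The groups overlap through 2 libraries, since replicate 5 at 6 h stood above replicate 3 harvested at once, while the other 4 libraries at 6 h were all under 10 CPM. The mean was 9.81-fold higher at once than later with all libraries and 68.7-fold higher without replicate 5 at 6 h. Of 28 family members tested, 27 were lower, with a median log2 fold change of -3.38. Reads that fit more than 1 place were dropped before counting, so near-identical members of the family lost reads and their levels are minimum levels.

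Replicate 5 at 6 h was the library with the highest level in 62 of the 63 sperm genes that fell, and replicate 3 harvested at once was the lowest of its group in 61 and replicate 4 the highest in 59. Without replicate 5 at 6 h, 71 sperm genes were lower and the median was -5.22. The msp-31 gene (WBGene00003429, chromosome II, 4916179 to 4916562 in WBcel235) encodes a major sperm protein. Its CPM were 7.32, 10.96, 3.32, 18.0 and 8.65 at once and 0.0596, 0.118, 0.0710, 0.303 and 2.67 later, so that the groups did not overlap although replicate 5 came near (log2 fold change -3.91 ± 0.60 SE, adjusted p = 0.00014). The nspd-5 gene belongs to a family of small nematode-specific peptides known from sperm. It had 3.91, 5.88, 1.74, 8.69 and 4.33 CPM at once and 0 in 4 of the 5 libraries at 6 h, with 1.34 in replicate 5 (log2 fold change -4.19 ± 0.68, adjusted p = 0.00025). Another member of the family, msp-113, fell by 3.61 ± 0.63 on the log2 scale. For comp-1, a kinase-like protein that sets how well sperm compete, all 5 later libraries were within 3 counts of 0 and the level was at least 2.74-fold lower.

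The falls included genes of sperm assembly, of signalling in sperm and of what sperm hand to the egg, for which the examples below were chosen after their values were seen. Not all did, and of 25 tested genes with spe names 5 were lower and 2 higher (median log2 fold change -0.67). The ssq-2 gene, of a sperm-specific family, had 14.1, 28.6, 7.77, 35.4 and 22.1 CPM at once and 0.179, 0.0591, 0.639, 0.243 and 8.53 later (log2 fold change -3.50 ± 0.66). The sperm phosphatases gsp-3 and gsp-4 fell by 3.11 ± 0.70 and 2.89 ± 0.63. The spe-11 gene, whose product sperm bring to the embryo, fell by 2.49 ± 0.64. In each of these 4 genes replicate 5 at 6 h exceeded replicate 3 harvested at once, and the other 4 later libraries lay below all 5 earlier ones.

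**Figure D1:**
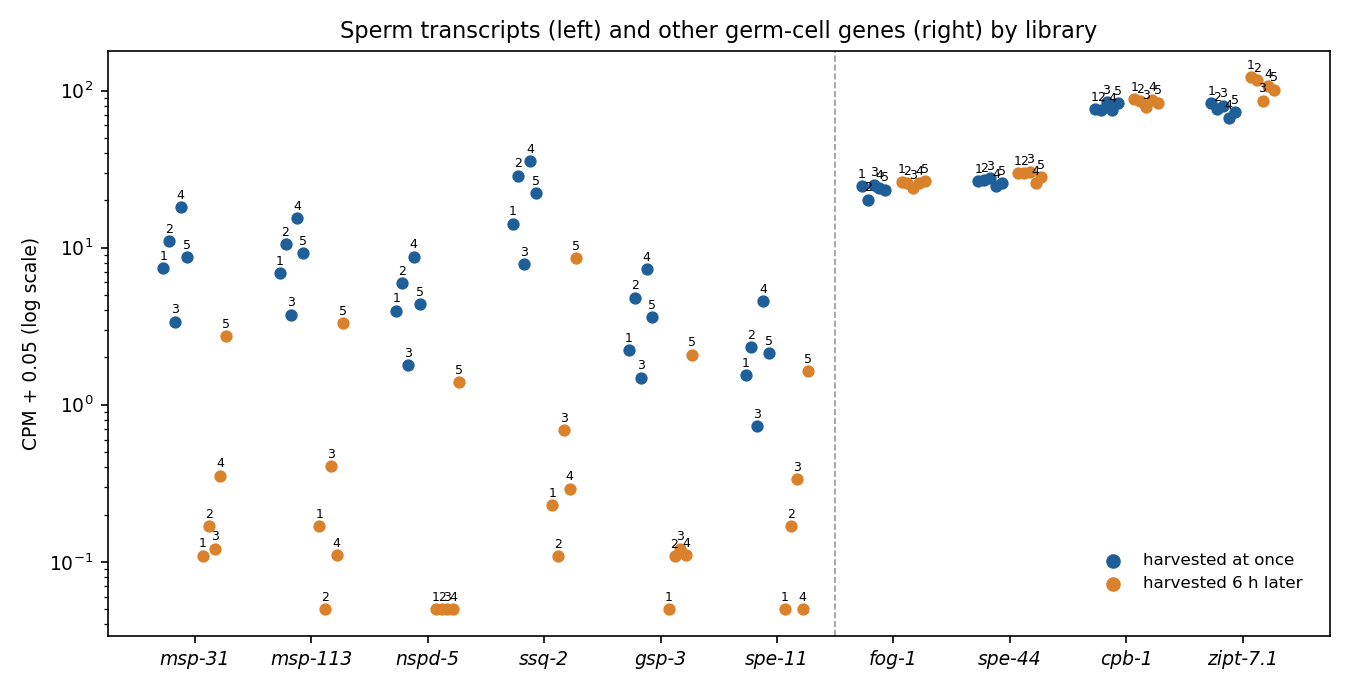
Level of 10 germ-cell genes in each library, as CPM plus 0.05 on a log axis; each point is a library, its number is the replicate, and colours give the harvest time. In the 6 sperm transcripts on the left, replicate 5 at 6 h stands apart from the other 4 later libraries (8.53 against 0.0591 to 0.639 CPM for ssq-2), while the 4 genes on the right hold their level or are higher.

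Some genes that set up the sperm programme did not pass the test. The list holds fog-1, a regulator of messages that directs germ cells to become sperm, with 20.1 to 25.14 CPM at once and 24.1 to 26.4 later. It also holds spe-44, a regulator of transcription in spermatogenesis, with 24.5 to 27.6 CPM at once and 25.6 to 30.4 later, and cpb-1, a message-binding protein needed for spermatogenesis, with 75.1 to 84.0 and 78.0 to 88.3 CPM. None of these 3 genes, chosen after their values were seen, passed the test (adjusted p from 0.22 to 0.27 in edgeR's quasi-likelihood test). The only member that rose was zipt-7.1, a zinc transporter that acts in sperm activation. It had 83.0, 76.3, 80.1, 67.3 and 72.8 CPM at once and 121, 117, 86.3, 106 and 101 later, with no overlap (log2 fold change 0.49 ± 0.10, adjusted p = 0.0013).

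In exposed worms 69 sperm genes were lower and the list's median was -5.01. Their major sperm proteins summed to a mean of 174 CPM at once and 3.22 later, and the later libraries ran from 1.76 to 6.06 CPM. The difference between the 2 falls was called in 0 of the 90 sperm genes by edgeR without pairing, beside 5.28% of all genes. With the pairing it was called in 21, all with the smaller fall in unexposed worms, and in 2 with the pairing but without replicate 5 at 6 h.

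Most oocyte genes rose, by small amounts. Of 42 oocyte genes tested, 26 were higher (61.9%) and 2 lower (4.76%), beside 8.19% and 10.9% of all genes. The median log2 fold change was 0.17, beside -0.03 for all genes. Their summed level ran from 22890 to 26231 CPM at once and from 26003 to 26780 CPM later. Replicate 3 harvested at once, the library with the least sperm transcript, had the most oocyte transcript of its group. It was the highest of its group in 24 of the 26 genes that rose, and replicate 4, with the most sperm transcript, was the lowest in 18. What part these libraries have in the rise was not tested, and 31 oocyte genes were higher without replicate 3 and 19 without replicate 4.

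The oocyte genes with the largest rises were meg-1 and meg-3. The meg-1 gene (WBGene00010492, chromosome X, 13927036 to 13929634) encodes a protein of the P granules, the RNA bodies of the germ line. It had 213, 201, 225, 203 and 207 CPM at once and 278, 270, 268, 270 and 259 later, so every later library lay above every earlier one (log2 fold change 0.36 ± 0.05, adjusted p = 2.4e-05). Its relative meg-3 rose by the same 0.36 ± 0.06. Among regulators of maternal messages the rises were 0.28 ± 0.05 for nos-2, a Nanos protein, 0.24 ± 0.05 for gld-3, a Bicaudal-C protein, 0.23 ± 0.05 for puf-11, a Pumilio-type protein, and 0.21 ± 0.05 for pos-1, a zinc finger protein that patterns the embryo. The gap junction subunit inx-14, through which the sheath talks to the germ line, rose by 0.27 ± 0.05. Reads of nos-2 and inx-14 could include those of the overlapping genes him-14 and kbrl-1, since the strand of counting is not given. The oocyte gene with the most reads was cgh-1, a DEAD-box protein that guards stored messages. It had 2542 to 2884 CPM at once and 2680 to 2840 later, with no call (log2 fold change 0.04 ± 0.05).

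The 2 oocyte genes that fell were cav-1 and fbf-2. Caveolin, the product of cav-1 (WBGene00000301, chromosome IV, 9772510 to 9773559), lines membrane vesicles of the oocyte and early embryo. It had 61.7, 69.5, 92.01, 62.5 and 76.6 CPM at once and 25.3, 30.6, 30.6, 40.7 and 35.1 later, with no overlap (log2 fold change -1.16 ± 0.13, adjusted p = 4e-06). The fbf-2 gene encodes a Pumilio-type protein that keeps germline stem cells dividing. Its values were 24.6, 28.5, 27.1, 29.8 and 26.8 CPM at once and 16.4 to 21.6 later (log2 fold change -0.46 ± 0.09, adjusted p = 0.0013). The fall of fbf-2 was called in exposed worms too (-0.33). For cav-1 the exposed worms started low, with 26.8 ± 1.02 CPM (SD, n = 5) at once and 34.8 ± 7.57 later, and the difference between the 2 changes was called (-1.54 on the log2 scale, adjusted p = 1.2e-05 in edgeR's quasi-likelihood test).

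Most eggshell genes were higher too. Of 21, 13 rose (61.9%) and 0 fell by edgeR, beside 8.19% and 10.9% of all genes. The median log2 fold change was 0.18, and 20 of the 21 values were above 0. At an unadjusted p under 0.05, 5232 of all genes tested passed in either direction. Summed over the list, the eggshell genes had 14129 to 16497 CPM at once, again with replicate 3 highest, and 16657 to 17337 CPM later, so the sums did not overlap. Without replicate 4 of the worms harvested at once, 8 members were higher.

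The eggshell genes that rose act at the egg surface and in the layers of the shell. The egg-4 and egg-5 genes encode inactive phosphatases at the egg surface that act at fertilisation. The first had 169, 167, 183, 160 and 172 CPM at once and 206, 204, 209, 209 and 199 later (log2 fold change 0.27 ± 0.05, adjusted p = 0.0007). The second rose by 0.21 ± 0.05, their partner egg-3 by 0.23 ± 0.05 and egg-2, a receptor-like protein of the egg surface, by 0.24 ± 0.05. For the permeability barrier and the layer around it, perm-1 rose by 0.27 ± 0.06, perm-2 by 0.18 ± 0.04 and dgtr-1, an acyltransferase of the lipid layer, by 0.30 ± 0.06. The chitin-binding proteins cpg-1 and cbd-1 rose by 0.22 ± 0.06 and 0.17 ± 0.06. The last of these, with the most reads of the list, had 3843, 3857, 4433, 3726 and 3951 CPM at once and 4631, 4471, 4397, 4486 and 4356 later. Its groups overlap through replicate 3, and its call was lost in 5 of the 10 fits that left out a library (adjusted p up to 0.098). In exposed worms 8 eggshell genes were higher and 1 lower, and the difference between the changes was called in 1 gene, and in 5 with the pairing.

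Genes of DNA replication and the cell cycle, which serve the dividing germ line, were also higher. Of 32 tested, 18 rose (56.25%) and 0 fell by edgeR, beside 8.19% and 10.9% of all genes. All 32 values were above 0 (median log2 fold change 0.14). The small subunit of ribonucleotide reductase, rnr-2, had 586, 561, 638, 521 and 549 CPM at once and 726, 693, 683, 709 and 676 later (log2 fold change 0.29 ± 0.05, adjusted p = 0.00084). Every later library was above every earlier one. The origin recognition subunit orc-1 rose by 0.24 ± 0.05, the GINS subunit psf-1 by 0.28 ± 0.06 and the B-type cyclin cyb-2.2 by 0.22 ± 0.05. The count of calls depended on single libraries harvested at once. It was 7 without replicate 4, 11 without replicate 2 or replicate 5, and 24 without replicate 3.

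Fewer meiosis genes passed the test. Of 41, 6 were higher (14.6%) and 2 lower (4.88%), beside 8.19% and 10.9% of all genes, with a median of 0.09. The pairing protein him-8, which joins the X chromosomes, had 42.6 to 48.5 CPM at once and 52.9 to 57.1 later (log2 fold change 0.26 ± 0.05, adjusted p = 0.00092). The recombinase rad-51 rose by 0.16 ± 0.05, a call lost in 3 of the 10 fits without a library. The 2 that fell were the axis protein htp-1 (-0.13 ± 0.04) and chk-2 (-0.32 ± 0.11), a kinase that starts pairing, and these calls were lost in 4 and 7 of the 10 fits that left out a library (adjusted p up to 0.072 and 0.098).

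**Figure D2:**
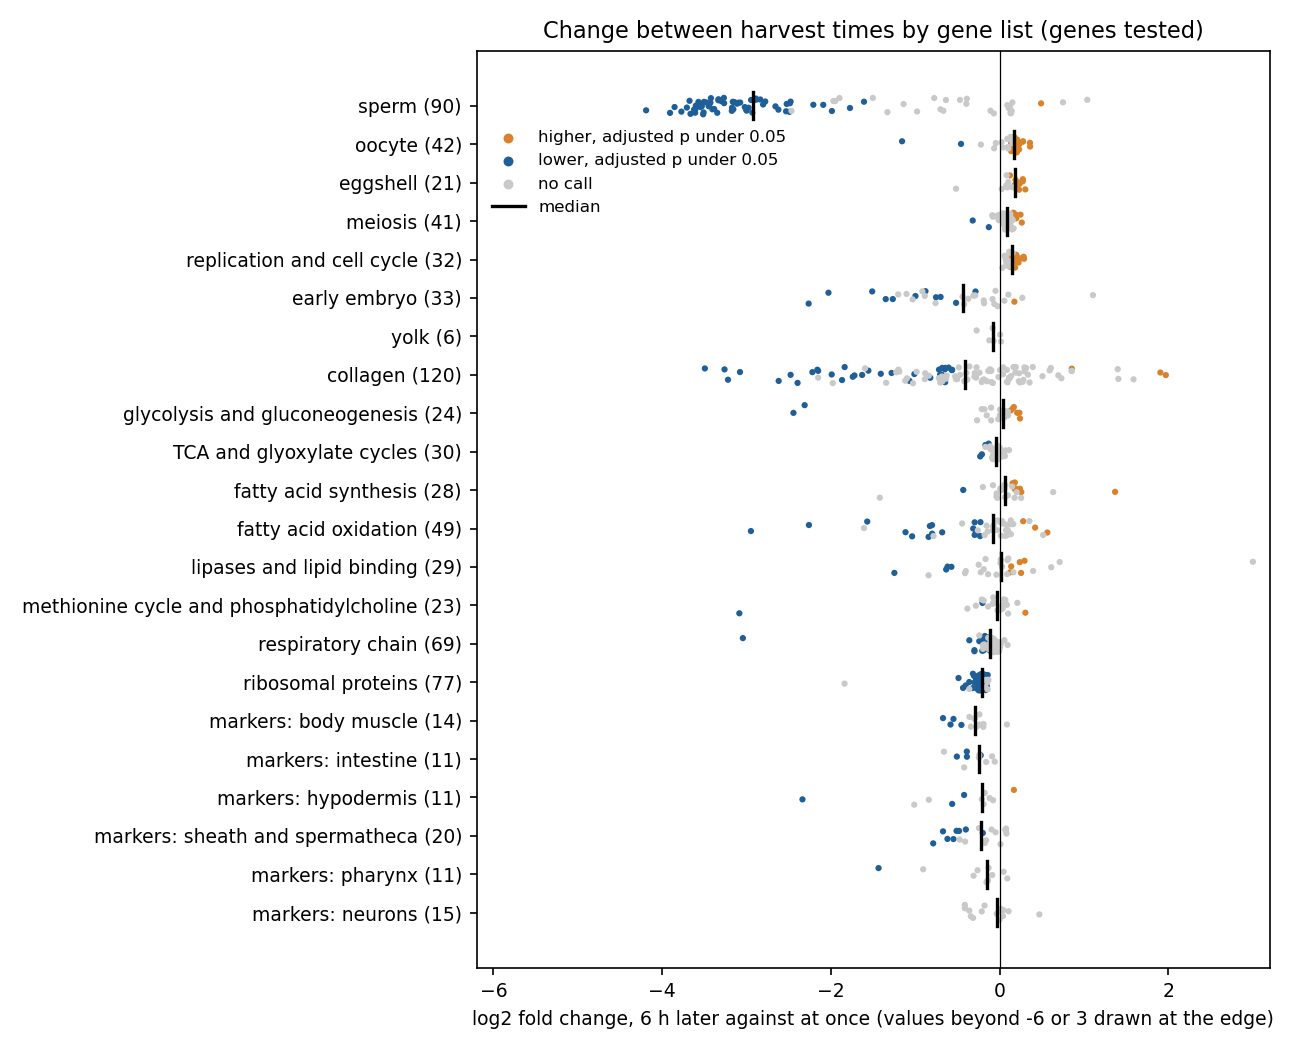
Log2 fold change of every tested gene of 22 lists, 6 h later against at once; points are genes, colour gives the call at an adjusted p under 0.05, the black bar is the list's median and the number tested stands in parentheses. Sperm genes reach furthest to the left (median -2.92), while the oocyte, eggshell and replication genes form narrow groups just right of 0 (medians 0.17, 0.18 and 0.14).

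Among genes that switch on in the embryo, falls outnumbered rises. Of 33 early embryo genes tested from a list of 36, 11 fell (33.3%) and 1 rose (3.03%), with a median log2 fold change of -0.44. Most were at low levels. Over all genes, 10.9% fell and 8.19% rose. The homeobox gene ceh-36 (WBGene00000457, chromosome X, 14183221 to 14186566), which acts in embryonic lineages and in neurons, had 1.498, 1.07, 2.26, 1.199 and 1.31 CPM at once and 0.298, 0.413, 0.568, 0.182 and 0.318 later. All later libraries were under all earlier ones (log2 fold change -2.03 ± 0.38, adjusted p = 0.001). The Hand-type factor hnd-1, of embryonic mesoderm, had 1.86 to 2.64 CPM at once and 0.532 to 1.21 later (-1.35 ± 0.28). The T-box factor tbx-11 had 2.07 to 3.85 and 0.596 to 1.59 CPM (-1.27 ± 0.26), and the Notch receptor lin-12, which also acts in the larval gonad, had 6.83 to 8.02 and 3.31 to 6.37 CPM (-0.70 ± 0.16). The member that rose, pal-1, is a caudal-type factor whose message the mother supplies (0.17 ± 0.05). The number that fell was 6 without replicate 1 and 7 without replicate 4 of the 6 h worms.

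In exposed worms 1 early embryo gene fell and 1 rose, with a median of 0.04. The unexposed worms harvested at once had the highest of the 4 group means in 10 of the 11 genes that fell. These 11 were picked by their fall from that group, which favours this order, so the count is only a description. The difference between the harvest-time changes was called in 5 genes of this list, among them ceh-36 (-2.42 on the log2 scale, adjusted p = 0.0096 in edgeR's quasi-likelihood test), hnd-1 (-2.13, adjusted p = 0.0022) and tbx-11 (-1.36, adjusted p = 0.037). Exposed worms had 0.398 ± 0.234 CPM of ceh-36 at once and 0.493 ± 0.188 later (SD, n = 5).

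**Figure D3:**
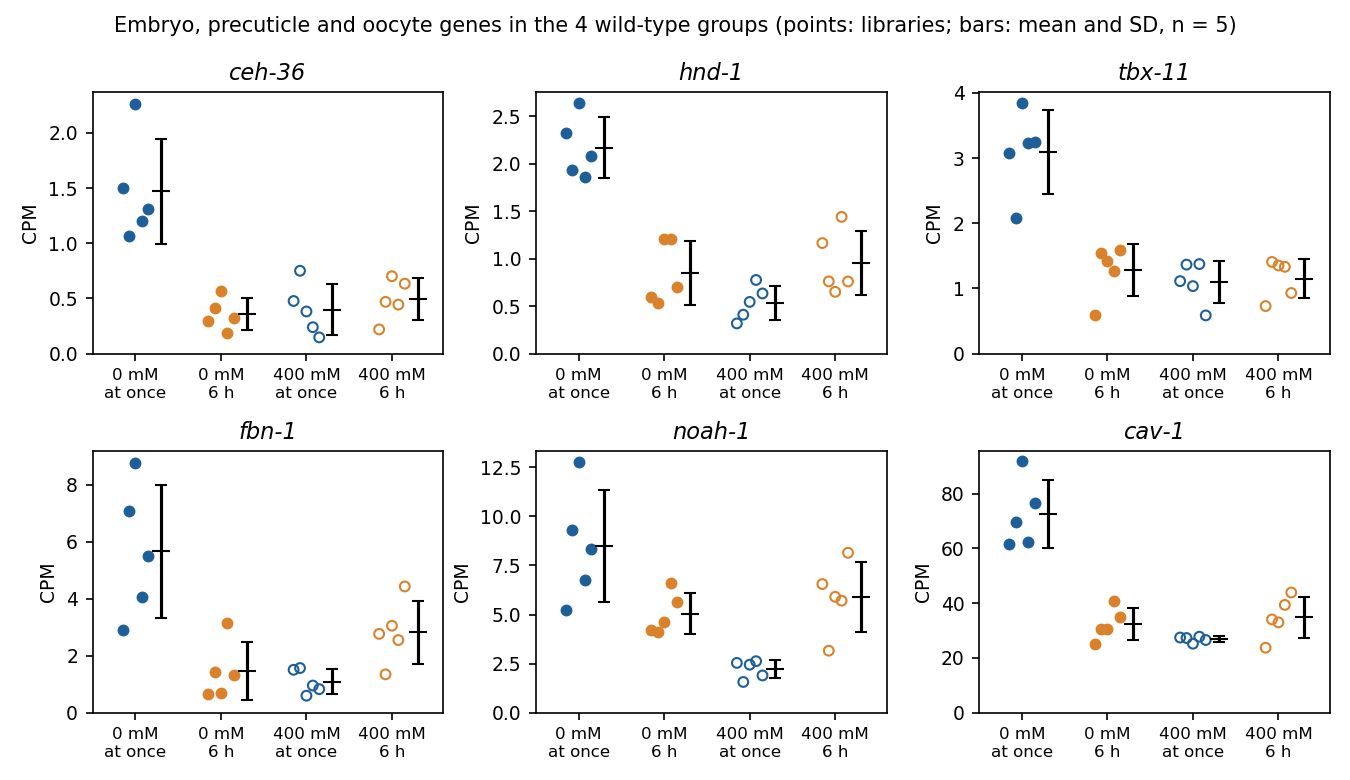
CPM of 6 genes in the 4 wild-type groups; points are libraries, filled for worms never exposed and open for worms exposed to 400 mM ethanol, and bars give the mean and SD of 5 libraries. In each panel the unexposed worms harvested at once have the highest mean, for example 1.47 CPM of ceh-36 against 0.356 to 0.493 in the other 3 groups. All 6 genes were called lower at 6 h in unexposed worms, a choice that favours this order.

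The vitellogenins, the yolk proteins made in the intestine, did not pass the test in unexposed worms. The 6 genes summed to 75410, 85774, 81998, 82529 and 80280 CPM at once and to 77618, 78505, 73169, 75083 and 80626 CPM later, with overlapping groups, a share of 8.12% and 7.70% of all counts on this scale. Those with the most reads were vit-6, with 25094 to 27483 CPM at once and 23790 to 26344 later, and vit-2, with 21590 to 23947 and 20724 to 22965. The log2 fold changes of vit-1 to vit-6 were -0.27 ± 0.15, -0.07 ± 0.05, -0.12 ± 0.12, 0.01 ± 0.09, 0.00 ± 0.07 and -0.08 ± 0.06, with adjusted p from 0.20 to 0.97 in edgeR's quasi-likelihood test. A fit of the 10 unexposed libraries alone called vit-1 lower (adjusted p = 0.038). In exposed worms vit-2, vit-4 and vit-6 rose (0.19, 0.34 and 0.18), and the difference between the changes was called in 0 of the 6 genes without pairing (smallest adjusted p = 0.051, for vit-2) and in 3 with it. These were vit-2 (-0.26 on the log2 scale, adjusted p = 0.0065), vit-4 (-0.34, adjusted p = 0.022) and vit-6 (-0.27, adjusted p = 0.015). The vit-2 gene overlaps C42D8.9, and vitellogenins resemble each other, so reads that fit more than 1 of them were not counted.

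Genes of yolk uptake and its regulation gave calls in both directions. Of 15 genes, 3 were higher (20%) and 2 lower (13.3%), beside 8.19% and 10.9% of all genes. The yolk receptor of the oocyte, rme-2, had 1376, 1442, 1565, 1324 and 1402 CPM at once and 1750, 1640, 1631, 1672 and 1645 later, with no overlap (log2 fold change 0.23 ± 0.05, adjusted p = 0.003). Rictor, the product of rict-1 and a subunit of the TOR complex that controls fat and yolk, had 116 to 134 CPM at once and 150 to 170 later (0.34 ± 0.06, adjusted p = 0.00029), and the gene overlaps the collagen col-86. The endocytosis factor rme-6, named with sgk-1 to complete the count after its values were seen, rose by 0.27 ± 0.07. The 2 that fell, the kinase sgk-1 (-0.33 ± 0.11) and the receptor-like lrp-2 (-0.26 ± 0.09), lost the call in 5 and 9 of the 10 fits that left out a library (adjusted p up to 0.14 and 0.11).

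More collagens fell than rose. Of 120 collagen genes tested from 176, 33 were lower (27.5%) and 3 higher (2.5%), beside 10.9% and 8.19% of all genes. The median log2 fold change of the collagens was -0.41. Setting the genes at the counting limit to the bound that 3 counts allow gave a median of -0.29. The largest falls with many reads were those of col-81, col-139 and col-129. The col-81 gene (WBGene00000657, chromosome II, 11012397 to 11013767) had 127, 134, 39.6, 147 and 94.0 CPM at once and 5.54, 9.04, 17.05, 8.55 and 8.46 later (log2 fold change -3.49 ± 0.38, adjusted p = 2e-06). For col-139 the values were 155.5, 166.6, 58.05, 212.7 and 142.5 CPM at once and 9.30, 13.8, 24.6, 13.2 and 16.5 later (-3.26 ± 0.34). In both genes the groups did not overlap, replicate 3 was the lowest of the earlier libraries and replicate 3 the highest of the later ones. The col-129, col-142, col-92 and col-133 genes fell by 3.22 ± 0.35, 1.72 ± 0.20, 2.16 ± 0.27 and 2.48 ± 0.35. Smaller falls with little spread were those of col-166 (25.4 to 32.1 CPM at once and 16.3 to 19.3 later) and col-155 (21.5 to 25.9 and 12.29 to 16.7).

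Of the 24 collagens with at least 100 CPM when harvested at once, these 3 among them, 9 were lower and 0 higher by edgeR, and the median of the 24 was -0.29. The collagen with the most reads, col-119, had 1637 to 2280 CPM at once and 1793 to 2257 later (log2 fold change 0.04 ± 0.12). The adult collagen col-19 had 1067, 1135, 740, 1179 and 947 CPM at once and 590, 727, 762, 598 and 753 later, so it fell (-0.56 ± 0.14, adjusted p = 0.0062) although replicate 3 harvested at once lay within the later range. Another with many reads, col-124, fell by 0.82 ± 0.18, with its lowest earlier library (1247 CPM) just above its highest later one (1244 CPM). It overlaps qns-1 and was chosen after its values were seen. As in the oocyte genes but in the other direction, replicate 3 was the lowest of its group in 23 of the 33 collagens that fell and replicate 4 the highest in 22. With replicate 3 left out 41 collagens were lower, and 26 were with replicate 4 left out.

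Against this, col-95 (WBGene00000670, chromosome III, 11703994 to 11705091) had 60.6, 77.7, 108, 65.5 and 61.2 CPM at once and 272, 319, 345, 243 and 282 later. Every later library was more than 2 times every earlier one (log2 fold change 1.97 ± 0.16, fold 3.91, adjusted p = 4.9e-08). In exposed worms it rose as steeply, from a mean of 93.6 to 408 CPM (2.12 on the log2 scale), and the difference between the rises was not called (adjusted p = 0.79). The other collagens that rose, named to complete the count after their values were seen, were col-43 (0.85 ± 0.24) and col-60 (1.90 ± 0.61). Their later means were 3.70 and 0.452 CPM, and the call of col-60 was lost in 8 of the 10 fits that left out a library (adjusted p up to 0.080). In exposed worms 28 collagens were lower and 7 higher. The difference between the changes was called in 5 of the 120 genes, beside 5.28% of all genes. With the pairing it was called in 8, beside 1576 of all 16210 genes.

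**Figure D4:**
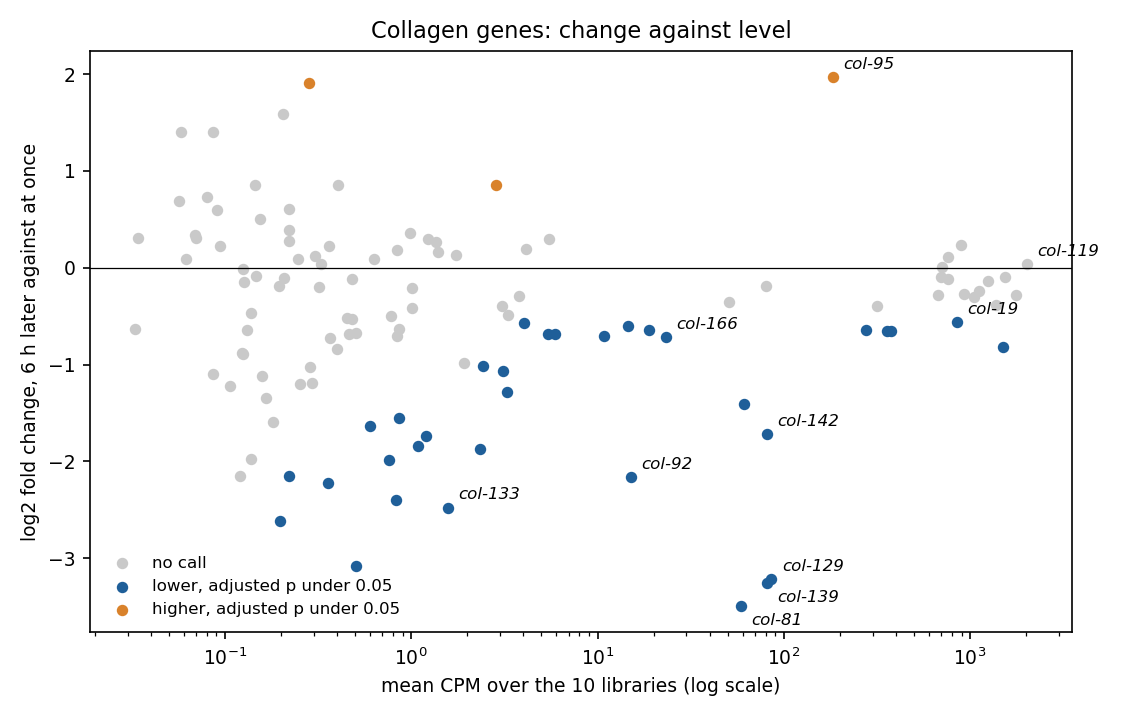
Log2 fold change of the 120 tested collagen genes, 6 h later against at once, against their mean CPM over the 10 libraries on a log axis; points are genes and colour gives the call. At the bottom, col-81, col-139 and col-129 (log2 fold changes -3.49, -3.26 and -3.22) stand apart from the other collagens with many reads, col-95 at the top rose by 1.97, and col-119, with the most reads, lies at 0.04.

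Genes of the moulting cycle gave 5 falls and 1 rise among 41 tested, which for the falls is a share of 12.2%, near the 10.9% of all genes. The astacin-type protease nas-37, which opens the old cuticle, had 24.7 to 31.6 CPM at once and 17.3 to 20.3 later (log2 fold change -0.58 ± 0.08, adjusted p = 4.9e-05). Fibrillin-like fbn-1 and the zona pellucida protein noah-1, both of the precuticle matrix, fell by 1.95 ± 0.38 and 0.75 ± 0.23 and were picked after their values were seen. In both, 1 or more later libraries lay within the earlier range. The nuclear receptor nhr-67 and the collagen-modifying phy-3, the latter picked in the same way, changed by -1.60 ± 0.46 and -0.97 ± 0.33, and the factor myrf-1, which times moults, rose by 0.33 ± 0.07. The level of nhr-67 was low, with 0.583 to 1.36 CPM at once and 0.0596 to 0.485 later. In exposed worms fbn-1 and noah-1 rose (1.42 and 1.42), and the difference between the changes was called (-3.37, adjusted p = 0.00032, and -2.16, adjusted p = 0.00019, in edgeR's quasi-likelihood test). The calls of noah-1, nhr-67 and phy-3 were lost in 4, 2 and 7 of the 10 fits that left out a library (adjusted p up to 0.074, 0.055 and 0.12).

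Metabolic genes were called in both directions. For glycolysis and gluconeogenesis 6 of 24 were higher (25%) and 2 lower (8.33%), beside 8.19% and 10.9% of all genes, with a median of 0.04. Hexokinase hxk-1 had 360, 345, 383, 336 and 344 CPM at once and 430, 407, 412, 424 and 415 later (log2 fold change 0.24 ± 0.05, adjusted p = 0.0012). Phosphoglycerate mutase ipgm-1 rose by 0.17 ± 0.04, pyruvate kinase pyk-1 by 0.16 ± 0.04 and enolase enol-1 by 0.13 ± 0.03. The 2 that fell, pck-3 (-2.31 ± 0.71) and pfk-1.2 (-2.44 ± 0.78), were named after their values were seen and had at most 1.32 CPM in any of the 10 libraries. They encode forms of phosphoenolpyruvate carboxykinase and phosphofructokinase. Both had their highest later level in replicate 5, the library with the most sperm transcript, and their calls were lost in 5 and 6 of the 10 fits that left out a library (adjusted p up to 0.098 and 0.10).

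In the TCA and glyoxylate cycles 0 of 30 genes were higher in edgeR's quasi-likelihood test and 4 were lower, with a median of -0.05, and the falls are a share of 13.3%, near the 10.9% of all genes. A subunit of the ketoglutarate dehydrogenase complex, dlst-1, had 317, 331, 338, 328 and 322 CPM at once and 276, 276, 302, 279 and 280 later (log2 fold change -0.21 ± 0.04, adjusted p = 0.001). The gene with the most reads, the aconitase aco-2, had 828 to 898 CPM at once and 844 to 927 later, with no call. Citrate synthase cts-1 fell by 0.13 ± 0.03, the isocitrate dehydrogenase subunit idhg-1 by 0.17 ± 0.05 and the succinyl-CoA ligase subunit sucl-1, named to complete the count after its values were seen, by 0.23 ± 0.07. The call of sucl-1 was lost in 5 of the 10 fits that left out a library and that of idhg-1 in 1 (adjusted p up to 0.10 and 0.064), and that of cts-1 with library totals as the scale (adjusted p = 0.15).

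Of 28 genes of fatty acid synthesis 7 were higher (25%) and 1 lower (3.57%), beside 8.19% and 10.9% of all genes. The desaturase fat-5 (WBGene00001397, chromosome V, 17725004 to 17726818), which acts on palmitate, rose most, from 13.65, 11.1, 13.96, 5.58 and 5.64 CPM at once to 29.03, 29.95, 17.05, 25.04 and 26.35 later. The groups did not overlap but were wide (log2 fold change 1.37 ± 0.28, adjusted p = 0.0019), and reads of the overlapping twk-42 could be included. ATP-citrate lyase acly-1 had 230 to 267 CPM at once and 285 to 315 later (0.26 ± 0.04), and the omega-3 desaturase fat-1 rose by 0.15 ± 0.04. Fatty acid synthase fasn-1 fell, from 250, 292, 284, 285 and 271 CPM to 200, 202, 211, 202 and 209 (-0.43 ± 0.08, adjusted p = 0.00064). Acetyl-CoA carboxylase pod-2, with the most reads of the list, had 515 to 543 CPM at once and 514 to 593 later, with no call. The number higher was 4 without replicate 4 of the worms harvested at once, and the call of fat-1 was lost without replicate 3 at 6 h (adjusted p = 0.052).

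Of 49 genes of fatty acid oxidation 16 were lower (32.7%) and 3 higher (6.12%), beside 10.9% and 8.19% of all genes. The median of the list was -0.08, and 10 were lower with library totals as the scale in place of the TMM factors. The carnitine palmitoyltransferase-like cpt-6 (WBGene00020911, chromosome V, 6490086 to 6493921) had 15.4, 21.7, 19.2, 20.98 and 17.8 CPM at once and 9.12, 8.80, 9.24, 9.46 and 9.74 later, with no overlap (log2 fold change -1.04 ± 0.12, adjusted p = 5.5e-06). The acyl-CoA dehydrogenases acdh-9 and acdh-2 fell by 0.68 ± 0.12 and 0.80 ± 0.16 and the thiolase kat-1 by 0.23 ± 0.05. The acyl-CoA synthetases acs-20 and acs-1 rose by 0.56 ± 0.12 and 0.28 ± 0.06, and the hydratase ech-7, named after its values were seen, by 0.42 ± 0.10. For acs-1, which supplies activated branched-chain fatty acids and overlaps hpo-26, the later libraries had 187, 214, 212, 207 and 212 CPM and the earlier ones 164 to 181.

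In the exposed worms 29 genes of fatty acid oxidation were lower and 5 higher (median -0.31), and the difference between the changes was called in 25 of the 49. In the peroxisomal enzymes daf-22, dhs-28 and acox-1.1, chosen after their values were seen, unexposed worms moved by -0.30 ± 0.10, -0.28 ± 0.08 and -0.23 ± 0.07. Exposed worms moved by -1.58, -1.35 and -1.08, from higher levels when harvested at once (115.1, 210.5 and 67.2 CPM against means of 55.5, 106 and 44.9 in unexposed worms). The differences were 1.28 (adjusted p = 3.5e-06 in edgeR's quasi-likelihood test), 1.07 (3.5e-06) and 0.85 (5e-06). The falls in unexposed worms were themselves at the edge, since they were lost in 6, 4 and 4 of the 10 fits that left out a library (adjusted p up to 0.13, 0.085 and 0.097).

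Among lipases and lipid-binding proteins 5 of 29 rose (17.2%) and 4 fell (13.8%), beside 8.19% and 10.9% of all genes. The gene with the most reads, far-2, which binds fatty acids and retinol, had 1101 to 1311 CPM at once and 1096 to 1315 later, with no call. The lipid-binding lbp-9 had 397 to 463 CPM at once and 484 to 504 later (log2 fold change 0.25 ± 0.06), and lbp-4 rose by 0.29 ± 0.07. The triglyceride lipase atgl-1, like lbp-5 and tyms-1 below named after its values were seen, rose by 0.24 ± 0.05, its partner lid-1 by 0.12 ± 0.04 and the perilipin plin-1, which coats fat droplets, by 0.14 ± 0.05. The acyltransferase dgat-2, which makes triglyceride, fell from 17.4, 20.7, 19.7, 22.4 and 18.8 CPM to 11.6, 11.99, 14.1, 12.8 and 16.2 (-0.57 ± 0.11, adjusted p = 0.0016). The binding proteins lbp-1, lbp-5 and lbp-8 fell by 0.63 ± 0.13, 0.62 ± 0.16 and 1.25 ± 0.35. The calls of lid-1 and plin-1 were lost in 7 and 8 of the 10 fits that left out a library (adjusted p up to 0.11 and 0.14), and that of lbp-8 without replicate 2 harvested at once (adjusted p = 0.054). In the methionine cycle and phosphatidylcholine synthesis, ahcy-1, which clears S-adenosylhomocysteine, had 1717, 1763, 1584, 1689 and 1640 CPM at once and 1376, 1471, 1525, 1417 and 1491 later (-0.21 ± 0.04, adjusted p = 0.002). Thymidylate synthase tyms-1 rose by 0.30 ± 0.08, sams-5, a S-adenosylmethionine synthetase, fell by 3.09 ± 0.39, and the other 20 of the 23 genes had no call. These calls are shares of 4.35% higher and 8.70% lower, both under the 8.19% and 10.9% of all genes.

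Of 69 subunits of the respiratory chain, 25 were lower (36.2%) and 0 higher by edgeR, beside 10.9% and 8.19% of all genes. Of the 69 values 64 were below 0, and the median was -0.11. The complex I subunits nuo-5 and nuo-1 fell by 0.19 ± 0.04 and 0.19 ± 0.04, from 374 to 415 CPM down to 330 to 360 for nuo-5 and from 413 to 435 CPM down to 354 to 396 for nuo-1. Cytochrome c1, the product of cyc-1, fell by 0.15 ± 0.03. The ATP synthase subunit atp-2, with the most reads of the list, had 2121 to 2334 CPM at once and 2139 to 2231 later, with no call. The 25 calls became 2 with library totals as the scale in place of the TMM factors. They were 16 without replicate 2 harvested at once, 15 without replicate 1 at 6 h and 14 without replicate 4 at 6 h.

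Nearly all ribosomal protein genes fell. Of 77 genes, 69 were lower (89.6%) and 0 higher by edgeR, beside 10.9% and 8.19% of all genes. All 77 values were below 0, and the median log2 fold change was -0.21. Summed, they had 82884, 88332, 88072, 84827 and 83197 CPM at once and 70264, 73246, 74348, 75955 and 77633 later, with no overlap. The largest falls with separate groups were in rpl-11.2 (189 to 245 CPM at once and 144 to 174 later, -0.49 ± 0.08), rpl-24.2 (64.4 to 71.3 and 46.3 to 56.4, -0.43 ± 0.07) and rpl-25.1 (77.2 to 97.4 and 58.5 to 74.9, -0.40 ± 0.08). With library totals as the scale 17 were called lower, and all 77 values were still below 0. In exposed worms 48 were lower (median -0.16), and the difference between the changes was called in 0 of the 77 genes without pairing and in 2 with it, rpl-11.2 (-0.34, adjusted p = 0.00047) and rpl-25.1 (-0.34, adjusted p = 0.005).

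**Figure D5:**
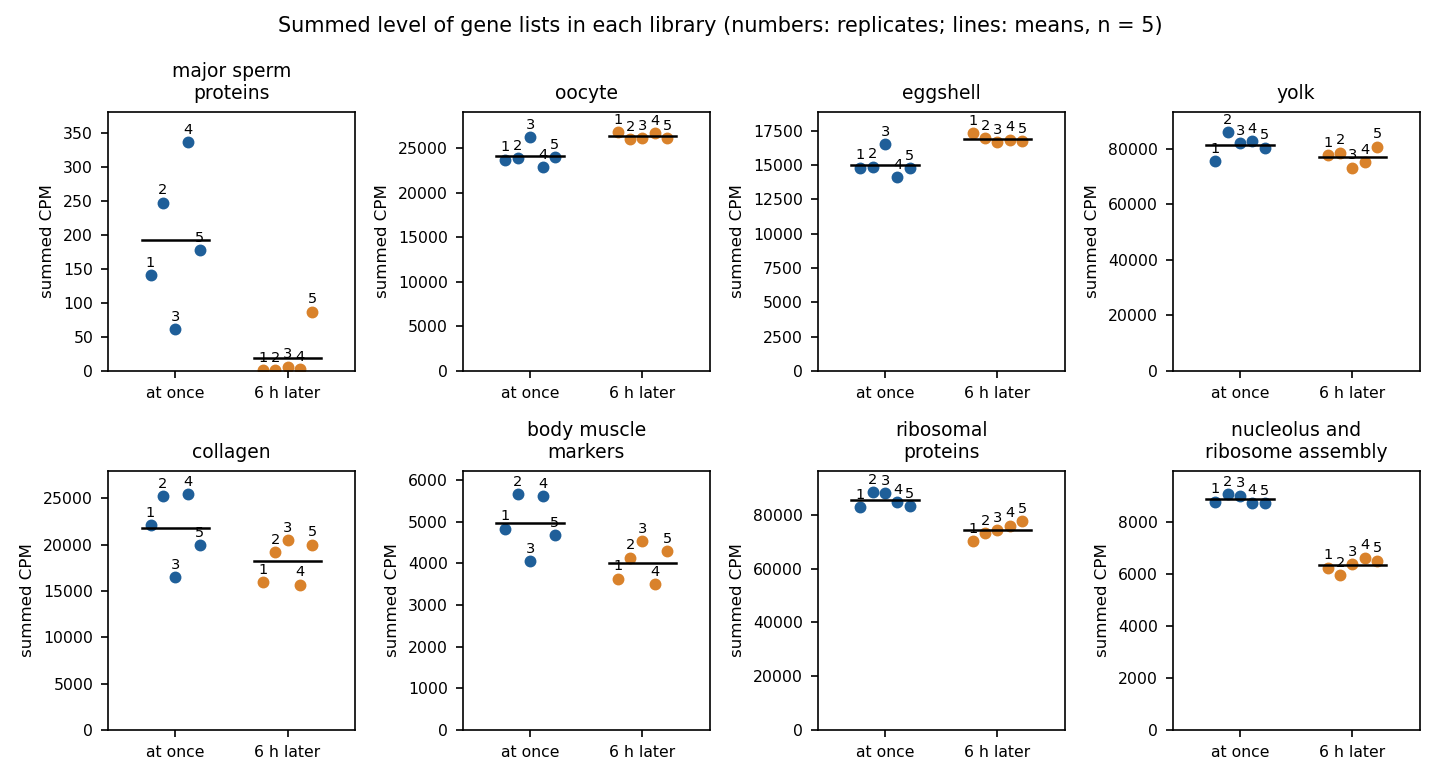
Summed CPM of 8 gene lists in each library at the 2 harvest times; numbers are replicates, lines are means of 5 libraries and each axis starts at 0. The sums of the ribosomal proteins, of nucleolar genes and of eggshell genes do not overlap between the times, those of yolk and collagens do, and replicate 3 harvested at once is low in sperm, collagen and muscle and high in oocyte and eggshell transcripts.

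Markers of tissues outside the germ line were examined beside these lists, and those named here other than unc-54, fln-1, col-19 and nhr-67 were named after their values were seen. Of 14 body muscle markers 4 were lower (28.6%) and 0 higher (median -0.30), beside 10.9% and 8.19% of all genes. The sum of the 14 ran from 4053 CPM in replicate 3 to 5649 in replicate 2 harvested at once and from 3492 to 4532 later. The 4 were the troponin tni-1 (-0.67 ± 0.15), the troponin T mup-2 (-0.55 ± 0.13), the thin-filament protein dim-1 (-0.45 ± 0.14) and the myosin myo-3 (-0.58 ± 0.18), and the calls of dim-1 and myo-3 were lost in 4 and 3 of the 10 fits that left out a library (adjusted p up to 0.078 and 0.072). Muscle myosin unc-54 had 1109 to 1620 CPM at once and 902 to 1237 later, with no call. In exposed worms 0 of the 14 markers were called by edgeR, with a median of -0.03. The difference between the changes was called in 0 without pairing and in 5 with it, all 5 more negative in unexposed worms. Replicate 3 was the lowest of the earlier libraries in 13 of the 14 markers, the same library that was low in collagens and high in oocyte genes. What part a differing share of germ line and body in the worm pools has in the collagen and oocyte results was not tested.

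Of 20 markers of the gonadal sheath and spermatheca 8 fell (40%, median -0.22), beside 10.9% of all genes. Of these 8, tni-1 and mup-2 are also among the 4 body muscle markers, and another was fln-1, a filamin (-0.20 ± 0.05). In exposed worms 2 of the 20 were higher and 2 lower (median -0.003). The difference between the changes was called in 0 of these markers without pairing and in 6 with it. Of 11 intestinal markers 4 fell (36.4%, median -0.25), led by the microvillus actin act-5, with 361 to 413 CPM at once and 225 to 335 later (-0.51 ± 0.10). The esterase ges-1, the GATA factor elt-2 and the filament protein ifc-2 fell by 0.39 ± 0.09, 0.39 ± 0.13 and 0.23 ± 0.08. In exposed worms 4 intestinal markers were lower and 1 higher (median -0.16), and the difference was called in 2, and in 4 with the pairing. Of 11 markers of the hypodermis 3 fell (27.3%), col-19, the GATA factor elt-1 (-0.42 ± 0.12) and the peptide cnc-2 (-2.34 ± 0.67), and lin-26 rose (0.17 ± 0.06). For cnc-2 the groups overlap, with 0.0832, 0.535, 0.755, 7.19 and 5.25 CPM at once and 0.284 to 0.955 later. The vulval and sex muscle markers gave 2 rises (14.3%) and 3 falls (21.4%) among 14, beside 8.19% and 10.9% of all genes. The rises were egl-26 (0.34 ± 0.07) and cdh-3 (0.32 ± 0.11), and the falls were let-653 (-1.14 ± 0.22), vab-23 (-0.89 ± 0.26) and nhr-67. Of 11 pharyngeal markers phat-4 fell (-1.44 ± 0.43), a share of 9.09%, near the 10.9% of all genes. Of 15 neuronal markers 0 were called in edgeR's quasi-likelihood test, with summed levels of 327 to 366 CPM at once and 323 to 368 later. The calls of elt-2, ifc-2, lin-26, cdh-3 and phat-4 were lost in 7, 8, 8, 7 and 4 of the 10 fits that left out a library, those of cnc-2 and vab-23 in 2 and 1 (adjusted p up to 0.13, 0.19, 0.096, 0.11, 0.075, 0.12 and 0.058).

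The genes with the smallest p over the whole table included atfs-1, the regulator of the mitochondrial unfolded protein response, with 72.6 to 80.03 CPM at once and 95.3 to 114.7 later (log2 fold change 0.49 ± 0.06, adjusted p = 2.7e-05). Of its known targets, hsp-6, a mitochondrial Hsp70, had 753, 715, 796, 718 and 755 CPM at once and 1133, 1077, 885, 1019 and 997 later (0.45 ± 0.08, adjusted p = 0.00034). Another, the mitochondrial chaperonin hsp-60, named after its values were seen, had 469 to 526 CPM at once and 435 to 491.5 later, with no call (-0.15 ± 0.05, adjusted p = 0.052). The peroxin prx-19 and the choline transporter-like chtl-1 rose by 0.37 ± 0.05 and 0.41 ± 0.05. The swah-1 gene, to which no role is given here, had 34.2 to 43.4 CPM at once and 62.4 to 68.4 later (0.78 ± 0.07, adjusted p = 2.2e-07).

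Among genes that fell, citk-1, a homologue of the citron kinase that acts in cell division, had 137, 116, 160, 122.7 and 133.2 CPM at once and 52.0, 56.2, 48.6, 57.1 and 61.5 later (log2 fold change -1.28 ± 0.10, adjusted p = 3e-08). The germline helicase glh-1, of the Vasa family, had 912 to 990 CPM at once and 646 to 713 later (-0.48 ± 0.04, adjusted p = 1.7e-07). The rRNA methyltransferase nsun-1 (WBGene00021073, chromosome II, 471262 to 475940) had 206, 212, 195, 196 and 189 CPM at once and 118.3, 107.8, 113.5, 120.5 and 103 later (-0.83 ± 0.06, adjusted p = 1.1e-08). It overlaps W07E6.5. The genes atfs-1, hsp-6, prx-19, chtl-1, swah-1, citk-1, glh-1 and nsun-1 were also called in the same direction in exposed worms. The difference was called for none of these 8 without pairing, and with it for atfs-1 (0.19, adjusted p = 0.042) and nsun-1 (-0.25, adjusted p = 0.0497). Of 16 heat shock and ER stress genes tested, 3 rose (18.75%) and 1 fell (6.25%), beside 8.19% and 10.9% of all genes. The rises were those of hsp-6, the BiP homologue hsp-4 (0.23 ± 0.06) and the heat shock factor hsf-1 (0.26 ± 0.05). The small heat shock protein hsp-43, named after its values were seen, fell (-0.30 ± 0.08).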

How the data were processed

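Polyadenylated RNA from whole worms was made into NEBNext Ultra II libraries and sequenced in pairs. The authors aligned reads with STAR 2.6.0a, which counted uniquely aligned reads per gene, and deposited the raw counts in 1 table of 46739 genes. The annotation release and the strand used for counting are not given in the sources used here. Symbols and positions were taken from Ensembl 115 (WBcel235), where 46484 identifiers matched.

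The members and the gene lists were chosen with earlier results of these data known. Counts of the 20 wild-type libraries were fitted together with edgeR 4.0.16 in R 4.3.3 (TMM scaling, mean count of at least 1, quasi-likelihood test, Benjamini-Hochberg adjustment over 16210 genes, threshold 0.05). The interaction of harvest time and exposure was tested in the same fit and, since unexposed and exposed worms of 1 day were treated in parallel, again with the replicate number within harvest time as a block, added after seeing the data (that a number marks a day is not stated). A gene within 3 counts of 0 in every library of a group was given a bound. No 2 libraries of a group agreed within sampling noise (smallest chi-square per gene 3.63). By this measure replicate 5 harvested at once stood furthest from its group (47.2 to 64.1, beside 5.07 to 14.6 among the rest). At 6 h it was replicate 1 (46.5 to 66.8, beside 3.63 to 8.89 among the rest). On simulated data for this comparison, with 16022 genes, 63% of 1.5-fold and 91% of 2-fold changes were recovered, with 4 false calls among 15822 genes. The changed genes were drawn from genes with counts well above the filter, and each library was drawn independently. These figures therefore do not cover genes with few counts, or libraries that shift in many genes together as some here did.

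Genes were named by a fixed rule: vitellogenins, rme-2, cbd-1, col-19, lov-1 and pkd-2; per list, the genes with the smallest p and separate groups, up to 4 per direction, or 8 for sperm, oocyte, eggshell and collagen genes; over all genes, the 10 of smallest p per direction with at least 5 CPM; and the gene of highest CPM in each list. Exceptions are marked where they appear. Alternatives were other scalings, filters, sample sets, a replicate block, DESeq2 1.42.0 and leaving out each library. Of 613 list entries, 11 had no match.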

Additional observations from a re-analysis of the deposited data

Results flagged for a closer look

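Of 338 groups of 5 libraries examined, 24 held a library far from the other 4 by Dixon's criterion, which chance gives in about 1 of 20 groups. In 13 of these the library was replicate 5 at 6 h, standing high in sperm transcripts. It had 87.0 CPM of the summed major sperm proteins and 440 CPM of the summed sperm list. Its single values were 2.67 CPM for msp-31, 1.34 for nspd-5, 3.25 for msp-113, 8.53 for ssq-2, 2.04 for gsp-3, 1.97 for gsp-4 and 1.59 for spe-11. It was also high in 4 metabolic genes, with 1.21 CPM for sams-5, 1.59 for acdh-8, 0.573 for pfk-1.2 and 1.53 for cyc-2.2.

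The other 11 were in genes outside the sperm list. Replicate 3 harvested at once was high in pyk-1 (532 CPM), atgl-1 (102.1 CPM) and nhr-67 (1.36 CPM). Replicate 3 at 6 h was high in dlst-1 (302 CPM), atp-2 (2231 CPM) and hsp-60 (491.5 CPM) and low in swah-1 (62.4 CPM) and lin-26 (78.6 CPM). Replicate 4 at 6 h was high in lid-1 (101.6 CPM). Replicate 1 at 6 h was low in acs-1 (187 CPM) and high in lys-3 (0.894 CPM).

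In 24 named genes the change between harvest times differed between unexposed and exposed worms by edgeR's test of the difference. The values are the log2 fold change of unexposed minus that of exposed worms. It was negative for cav-1 (-1.54), for the embryo genes ceh-36 (-2.42), hnd-1 (-2.13) and tbx-11 (-1.36), for the precuticle and moulting genes fbn-1 (-3.37), noah-1 (-2.16), nas-37 (-0.44) and let-653 (-1.35), and for the collagen col-43 (-1.85). It was also negative for fasn-1 (-0.42), dgat-2 (-0.62), ahcy-1 (-0.26), lrp-2 (-0.45), elt-1 (-0.57), spp-5 (-0.57) and hsp-43 (-0.87). It was positive for him-8 (0.28), enol-1 (0.21), aco-2 (0.24), fat-1 (0.30), acs-1 (0.53), daf-22 (1.28), dhs-28 (1.07) and acox-1.1 (0.85).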

How the results depend on the processing

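Of the 141 named genes that were called, 101 kept the call in every alternative run and 0 changed direction. Leaving out each of the 10 libraries in turn gave 1950 to 3705 changed genes and 753 to 1655 higher ones. It gave 8 to 14 eggshell genes higher, 7 to 24 replication genes higher, 6 to 10 early embryo genes lower, 4 to 7 genes of fatty acid synthesis higher and 14 to 26 respiratory chain genes lower. With library totals in place of TMM, 10 genes of fatty acid oxidation, 2 of the respiratory chain and 17 ribosomal protein genes were lower. DESeq2 called 3100 genes. With the replicate block across harvest times 2859 genes changed, and same-numbered libraries of the 2 harvest times correlated by -0.272 to 0.091 in their deviations, so the numbers were not taken to pair the harvest times. Same-numbered unexposed and exposed libraries correlated by 0.118 to 0.589 at once and by 0.0984 to 0.382 at 6 h. With the replicate block within harvest time the difference between the changes was called in 1576 genes, and in 1197 without replicate 5 of the unexposed worms at 6 h, against 856. All 24 named genes with a call of the difference kept it in this block. At low counts the limit is depth: 3 counts were 0.25 CPM or less at once and 0.213 CPM or less later.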

Other observations

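Genes of the nucleolus and of ribosome assembly, a list chosen after its values were seen, were lower at 6 h. Of 35 genes 30 were lower (85.7%) and 0 higher by edgeR, beside 10.9% and 8.19% of all genes, with a median log2 fold change of -0.39. In 27 of the 35 the 5 libraries of one time did not overlap those of the other, beside 12.4% of all genes. The nucleolin nucl-1 had 1775, 1800, 1751, 1753 and 1750 CPM at once and 1199, 1114, 1197, 1266 and 1256 later (-0.55 ± 0.05, adjusted p = 2.1e-07). The fibrillarin fib-1, which methylates ribosomal RNA, fell by 0.58 ± 0.06. In exposed worms 27 of the 35 were lower (median -0.31), and the difference was called in 1, and in 3 with unexposed and exposed libraries of the same number paired within harvest times.

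Lysozymes and saposins, which act against microbes in the intestine, gave 7 falls (20.6%) and 3 rises (8.82%) among 34 tested, beside 10.9% and 8.19% of all genes. The saposin spp-5 had 168, 174, 146, 193 and 181 CPM at once and 130, 144, 120, 109 and 114 later (-0.48 ± 0.08, adjusted p = 0.00051). The saposin spp-12 rose by 2.57 ± 0.41, from 0.0600 to 0.679 CPM at once to 0.711 to 3.27 later.

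Forms of metabolic genes with few reads followed the libraries rich in sperm transcript, and these were chosen after their values were seen. The acyl-CoA dehydrogenase acdh-8 had 2.00, 4.81, 1.43, 6.06 and 2.70 CPM at once and 0, 0.236, 0.0711, 0.303 and 1.59 later (-2.95 ± 0.55, adjusted p = 0.001). The cytochrome c gene cyc-2.2 had 1.06 to 4.68 CPM at once and 0 to 1.53 later (-3.04 ± 0.68).

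By gene name, all 9 tested nspd genes and 8 of 10 ssp genes, a sperm-specific family, were lower, beside 10.9% of all genes. Of 25 spe genes, 5 were lower and 2 higher. Of 13 algn genes, which build N-linked sugars, 7 were higher, beside 8.19% of all genes, and in exposed worms 2 were. These families are examples, and larger shares were higher in the puf (6 of 8), mcm (5 of 8) and sqv (5 of 8) families. By chromosome, over genes with at least 1 CPM, the median log2 fold change was -0.09 on X (1524 genes) and between -0.00 and 0.03 on the 5 autosomes. On the mitochondrial genome, with 14 such genes, it was -0.21, and 4 of them were lower.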
